A study of Mus musculus with 2 samples.

Results

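The Hippo pathway genes described here are 10 genes of organ size control, namely the coactivators Yap1 and Wwtr1, the TEAD factors Tead1, Tead2, Tead3 and Tead4, the kinases Lats1 and Lats2, the upstream regulator Nf2 and the TEAD cofactor Vgll4. They were chosen by name, and all 10 were found among the 43346 Ensembl genes of both gene tables. RNA came from stomachs of healthy B6NCrl mice taken at embryonic day 15.5. Males and females were pooled, 78 embryos for replicate 1 and 62 for replicate 2, and no genetic change or treatment is given in the labels. Both libraries started from 10 ng of total RNA longer than 200 nucleotides with added ERCC spike-in RNAs. The study holds this single group, so the data show how strongly each gene was expressed, which of its transcripts carried the expression, and how far both pools differed. The 2 pools are labelled as biological replicates, and errors are SDs over them (n = 2).

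In the Hippo pathway, STE20-family kinases activate LATS kinases, which phosphorylate the coactivators YAP1 and TAZ (the product of Wwtr1) and keep them out of the nucleus. Unphosphorylated YAP1 and TAZ enter the nucleus, bind TEAD factors, which hold the DNA-binding domain that the coactivators lack, and switch on growth genes. In the developing gut the pathway acts in epithelium and in mesenchyme, where YAP1 and TAZ favour growth of progenitors over differentiation. These are messenger RNA levels, and they do not show phosphorylation or nuclear entry.

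The stomach label was checked against marker genes. All 4 stomach mesenchyme markers were detected, with sums of 445 TPM (replicate 1) and 461 TPM (replicate 2), and so were all 4 glandular epithelial markers (1121 and 1132 TPM). Krt8 alone held 822 and 825 TPM of the glandular sums, so those sums mostly reflect 1 gene. Liver markers (1541 and 558 TPM), exocrine pancreas markers (5894 and 7998 TPM) and red cell markers (26570 and 15200 TPM) were present as well. TPM is a transcript abundance per length, scaled to the same total in each library. Because RNA was taken from a mixed tissue, fewer cells of a type and less RNA per cell cannot be told apart.

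Sequences are shown first for 3 of the members with transcripts that differ by a short internal coding segment, because the isoform results below turn on them. Each is on the messenger strand, with the variable segment in capitals between 12 flanking bases of the transcript, from GENCODE M21 on GRCm38 (mm10). The Yap1 segment is 48 bases on the minus strand of chromosome 9 (7950492 to 7950539), all coding and in frame, present in Yap1-201 and absent from Yap1-202. The Nf2 segment is 45 bases on the minus strand of chromosome 11 (4780578 to 4780622), present in Nf2-202 and absent from Nf2-205. Its first 33 bases are coding and are followed by the stop codon TGA, so Nf2-202 ends there. The Tead2 segment is 105 bases on the plus strand of chromosome 7 (45217346 to 45217450), all coding and in frame, present in Tead2-201 and absent from Tead2-202, and it encodes the start of the TEA DNA-binding domain.
Yap1-201: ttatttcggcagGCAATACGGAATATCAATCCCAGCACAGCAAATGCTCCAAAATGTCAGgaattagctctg
Nf2-202: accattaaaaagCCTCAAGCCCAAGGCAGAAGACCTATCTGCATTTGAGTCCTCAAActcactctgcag
Tead2-201: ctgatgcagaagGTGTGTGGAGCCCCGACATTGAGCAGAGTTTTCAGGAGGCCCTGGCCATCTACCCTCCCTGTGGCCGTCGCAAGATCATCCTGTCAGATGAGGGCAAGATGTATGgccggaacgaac

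All 10 members were detected at 1 TPM or more in both pools, against 64.5% of the 21474 protein-coding genes. The median of the members was 18.2 TPM for replicate 1 and 19.3 TPM for replicate 2, where the median protein-coding gene had 5.70 and 5.72 TPM. Levels nonetheless spread widely within the pathway, from Tead2 at 108 ± 10.3 TPM to Tead4 at 1.75 ± 0.70 TPM. Of the expected counts on genes, which numbered 43209506 in replicate 1 and 44257493 in replicate 2, the members held 23688 (0.0548%) and 25001 (0.0565%). The tables record no molecular identifiers, so counting intervals and tests do not cover PCR copies.

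**Figure D1:**
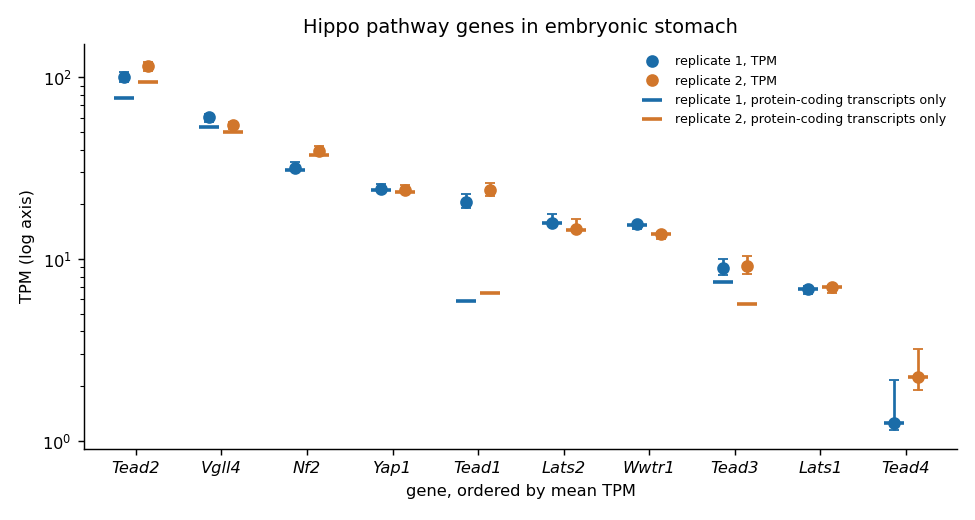
TPM on a log axis for each Hippo member, ordered by mean, with replicate 1 left of replicate 2. Circles are gene TPM, bars the authors' interval around the posterior mean, and dashes the TPM on protein-coding transcripts alone. Tead2 was highest at 101 and 115 TPM and Tead4 lowest at 1.25 and 2.24 TPM, and only Tead1 lost most of its level when transcripts were limited to protein-coding ones.

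The coactivators were both expressed, with Yap1 above Wwtr1. Yap1 (ENSMUSG00000053110.9, chromosome 9, 7931999 to 8004596) was at 24.4 TPM (replicate 1) and 23.9 TPM (replicate 2), which placed it at the 73.9th and 73.2nd percentile of protein-coding genes. Wwtr1, which encodes TAZ (ENSMUSG00000027803.10, chromosome 3, 57455649 to 57575910), was at 15.5 and 13.8 TPM. The values of the pair did not overlap, and Yap1 made up 61.1% of their summed TPM in replicate 1 and 63.5% in replicate 2 (62.3 ± 1.67%).

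Among the TEAD factors, which bind DNA for the coactivators, Tead2 carried most of the family's RNA. Tead2 (ENSMUSG00000030796.11, chromosome 7, 45215753 to 45233644) was at 101 TPM (replicate 1) and 115 TPM (replicate 2), at the 93.0th and 93.9th percentile of protein-coding genes. Tead1 (ENSMUSG00000055320.12, chromosome 7, 112679318 to 112906807) was at 20.7 and 24.0 TPM, and Tead3 (ENSMUSG00000002249.13, chromosome 17, 28331671 to 28350817) at 8.87 and 9.14 TPM. Tead4, known for its role in the trophectoderm of the mouse blastocyst (ENSMUSG00000030353.11, chromosome 6, 128224288 to 128300823), was at 1.25 and 2.24 TPM from 81 and 131 counts. No pair of neighbours in this order overlapped, and each step down the family was larger than the spread between the pools. Tead2 made up 76.6% of the family's summed TPM in replicate 1 and 76.5% in replicate 2, Tead1 15.7% and 15.9%, Tead3 6.74% and 6.06%, and Tead4 0.950% and 1.49%.

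The summed TPM of the 4 TEAD factors exceeded that of the 2 coactivators in both pools. The factors summed to 132 TPM (replicate 1) and 151 TPM (replicate 2), and the coactivators to 39.8 and 37.7 TPM. With protein-coding transcripts alone the sums were 91.1 and 109 TPM for the factors and 39.3 and 37.0 TPM for the coactivators, so the order was unaltered.

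Of the kinases that inactivate YAP1 and TAZ, Lats2 was expressed above Lats1. Lats2 (ENSMUSG00000021959.11, chromosome 14, 57689662 to 57758388) was at 15.7 TPM (replicate 1) and 14.6 TPM (replicate 2). Lats1 (ENSMUSG00000040021.8, chromosome 10, 7681214 to 7716460) was at 6.86 and 6.98 TPM and varied least of all members. The values did not overlap, and Lats1 made up 30.4% and 32.3% of the pair's summed TPM (31.4 ± 1.32%). Gm20430, a processed pseudogene of 207 bases on the opposite strand inside Lats2, held 123.05 and 43.47 counts (36.9 and 13.0 TPM). It is named after its values were seen. Whether it overlaps exons of Lats2 was not checked, and the strand setting is not given in the sources used here. Whether it shares reads with Lats2 was not tested.

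Nf2 and Vgll4, which both restrain YAP1 activity, stood above the coactivators. Nf2 encodes merlin, a membrane-linked scaffold that recruits LATS kinases (ENSMUSG00000009073.12, chromosome 11, 4765845 to 4849536), and was at 31.7 TPM (replicate 1) and 39.2 TPM (replicate 2). Vgll4 encodes a cofactor that competes with YAP1 for TEAD binding (ENSMUSG00000030315.11, chromosome 6, 114860628 to 114969994), and was at 60.5 and 55.0 TPM. Vgll4 was lower than Tead2 and higher than Nf2 in both pools.

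Ordered by mean TPM, the members ran Tead2, Vgll4, Nf2, Yap1, Tead1, Lats2, Wwtr1, Tead3, Lats1 and Tead4. Among neighbours in this order, the values of Yap1 and Tead1 overlapped between pools, as did those of Lats2 and Wwtr1, so neither pair differed beyond the spread between pools. Compared within each pool, Lats2 was above Wwtr1 in both. Yap1 was above Tead1 in replicate 1 and just below it in replicate 2 (23.9 against 24.0 TPM). The other neighbours were apart in both pools. With 2 libraries the order is a description and was not tested. Likeness to other genes across samples was not measured, because 2 libraries of 1 group give no pattern to compare.

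The level of Tead1 depended on which transcripts were counted. Tead1-209, a 646-base transcript annotated as a retained intron, held 185 counts in replicate 1 and 214 in replicate 2, which is 9.98% and 10.96% of the gene's counts. On the TPM scale the same transcript made up 53.0% and 52.5% of the gene, since TPM divides by length. Tead1-214, another retained-intron transcript of 894 bases, held 18.5% and 19.9% of the TPM and 5.06% and 6.04% of the counts. The coding transcript Tead1-202, of 9480 bases, held 63.0% and 71.9% of the counts but 19.5% and 20.1% of the TPM. Tead1-201, a longer coding transcript of 9964 bases, held 21.25% and 10.01% of the counts and 6.26% and 2.66% of the TPM. It holds internal coding segments of 63 and 12 bases that Tead1-202 lacks. Both retained-intron transcripts carry sequence from base 112842103 onward that Tead1-202 lacks, 272 bases in Tead1-209 and 293 bases in Tead1-214. Tead1-209 also carries 152 internal bases (112841888 to 112842039) that Tead1-202 lacks. They include the 63-base coding segment of Tead1-201 (112841888 to 112841950).

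Limited to protein-coding transcripts, Tead1 stood at 5.90 TPM (replicate 1) and 6.48 TPM (replicate 2), or 28.5% and 27.0% of its gene value. In that count it ranked 9th of the 10 members, where by gene TPM it ranked 5th, and its values lay close to those of Lats1 (6.86 and 6.98 TPM) and Tead3 (7.46 and 5.64 TPM). Tead2 then stood at 76.5 and 94.5 TPM and made up 84.0% and 86.8% of the family. The share of Tead2 was thus highest in the family in either count, while Tead1 was above Tead3 by gene TPM and overlapped it by coding TPM. The coding value of Tead3 leaves out ENSMUST00000080572.9, which has no M21 match and held 0 TPM in replicate 1 and 2.00 TPM in replicate 2. Its type is not known, and the overlap depends on leaving it out.

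**Figure D2:**
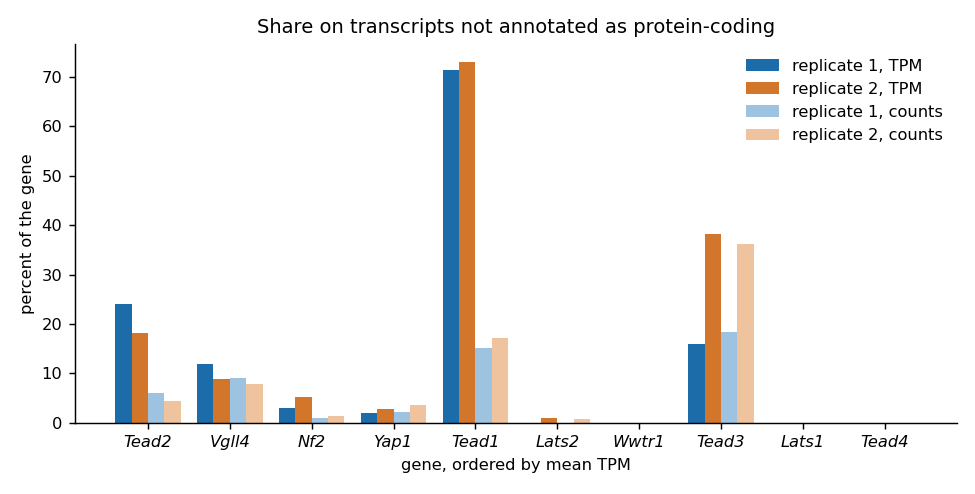
Percent of each gene's TPM (dark bars) and counts (light bars) on transcripts that M21 does not annotate as protein-coding, including transcripts with no M21 match, for replicate 1 and replicate 2. Tead1 had 15.04% and 17.0% of its counts on retained-intron transcripts but 71.5% and 72.4% of its TPM.

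The other TEAD genes were spread over several transcripts too. Tead2-201 led with 60.8% and 62.8% of the Tead2 TPM, and Tead2-202, which lacks the 105 bases of the TEA domain shown above, held 9.79% and 14.4%. The interval that the authors deposited for Tead2-202 ran from 5.06 to 15.1 TPM in replicate 1 and from 11.7 to 21.9 TPM in replicate 2, so both intervals overlapped. A 460-base Tead2 transcript without an M21 match (ENSMUST00000143734.1) held 16.1% and 11.97% of the TPM from 3.46% and 2.44% of the counts.

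Assignment among Tead3 transcripts differed between the pools. Tead3-201 led in both pools, with 36.4% and 52.4% of the TPM. Tead3-206 was assigned 219 counts in replicate 1 and 0 in replicate 2, and ENSMUST00000080572.9 was assigned 0 and 156. Their posterior-mean shares were 23.3% and 10.5% for Tead3-206, and 13.6% and 12.1% for ENSMUST00000080572.9. The deposited intervals of both transcripts began at 0.146 TPM or lower in both pools. Tead4 was split between Tead4-203 (63.3% and 50.5%) and Tead4-201 (36.2% and 33.7%), which holds a 129-base coding exon that Tead4-203 lacks.

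Yap1 was expressed mainly without its 48-base segment. Yap1-202, which lacks it, made up 69.4% of the Yap1 TPM in replicate 1 and 63.3% in replicate 2, and Yap1-201, which holds it, 26.2% and 30.4%. In human YAP1, splice forms with and without a short exon in the leucine zipper region are known. The deposited intervals for Yap1-201 ran from 4.05 to 8.01 TPM in replicate 1 and from 5.59 to 9.27 TPM in replicate 2, and all of them lay below those of Yap1-202 (14.7 to 18.8 and 12.6 to 16.4 TPM).

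Nf2 was expressed mainly as the form without the 45-base exon. Nf2-205, which lacks that exon, held 75.9% and 69.3% of the Nf2 TPM, and Nf2-202, which ends at the TGA printed above, 10.4% and 13.4%. In human NF2 the matching forms are the canonical merlin isoform and a second isoform with another carboxy terminus. Nf2-202 was higher in replicate 2 at 5.24 TPM, with an interval of 4.02 to 6.07, than in replicate 1 at 3.29 TPM, with an interval of 2.38 to 3.96. The level of these intervals is not stated, and the difference between pools was not tested.

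Vgll4 transcripts began at different first exons. Vgll4-201, whose annotated start is at base 114921821, made up 66.5% and 70.6% of the Vgll4 TPM, and Vgll4-203, which starts at base 114969994, 16.8% and 16.2%. Wwtr1, Lats1 and Lats2 each rested on a single transcript. Wwtr1-201 held 97.5% and 99.7%, Lats1-202 99.5% and 99.5%, and Lats2-201 90.9% and 90.4% of the TPM of their genes. For all 10 members the leading transcript was the same in both libraries, and 17 of their 81 transcripts reached 10% of the gene's TPM in both.

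**Figure D3:**
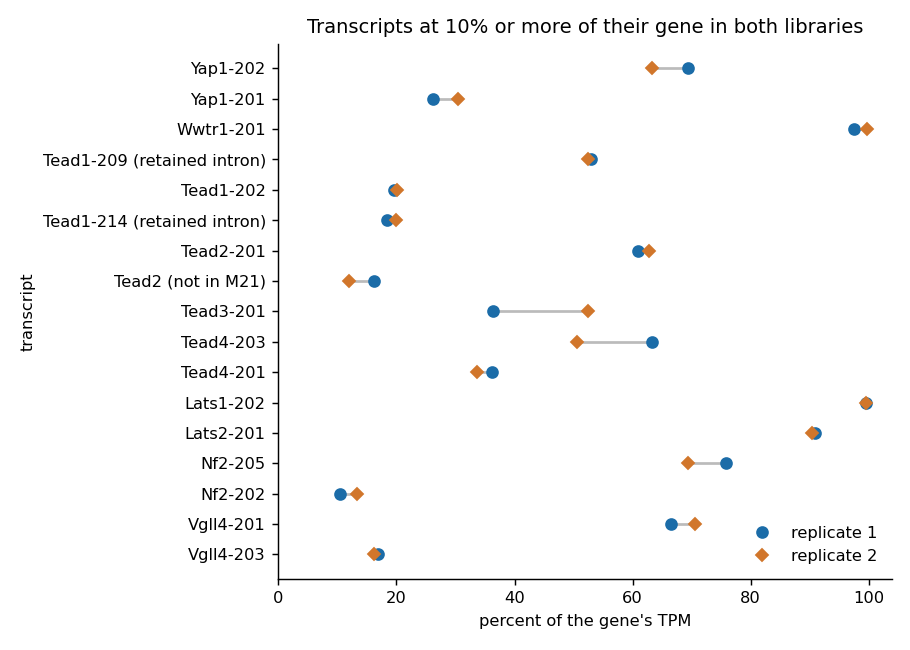
Percent of the gene's TPM on each of the 17 transcripts that reached 10% in both libraries, with circles for replicate 1 and diamonds for replicate 2 joined by a line. Wwtr1, Lats1 and Lats2 rested on a single transcript, while Tead1 was led by Tead1-209 (53.0% and 52.5%), a retained-intron transcript.

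The other genes on the pathway lists, called the other pathway genes below, were expressed broadly. They include genes often used as YAP and TAZ targets. Of 83 further genes on the pathway lists 82 were matched (Frmd1 was not), and 73 (89.0%) were detected in both pools, against 64.5% of all protein-coding genes. Their median was 15.1 TPM in replicate 1 and 16.7 TPM in replicate 2. The listed genes below 1 TPM in both pools were Strip2, Fat2, Fat3, Dchs2, Crb1, Vgll1, Vgll2 and Ankrd1.

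All 5 genes of the core kinase cassette were detected. The highest were Mob1a, a LATS activator (52.5 ± 0.45 TPM), and the STE20-family kinases Stk3 (31.9 ± 3.04 TPM) and Stk4 (14.1 ± 0.78 TPM), which act upstream of LATS. All 11 matched upstream scaffolds were detected, led by Rassf1 (45.8 ± 2.52 TPM), the LIM protein gene Limd1 (38.5 ± 2.01 TPM) and the angiomotin family gene Amotl2 (29.9 ± 1.34 TPM). All 12 kinases of the MAP4K, TAO and NDR groups, of which MAP4K and TAO kinases can also activate LATS, were detected, led by Stk38 (72.7 ± 2.88 TPM), Taok3 (30.7 ± 3.06 TPM) and Taok2 (29.7 ± 1.59 TPM).

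The STRIPAK phosphatase complex, which opposes the STE20-family kinases, had the highest median of the pathway lists apart from the single-gene Vgll4 list, at 37.5 TPM (replicate 1) and 37.7 TPM (replicate 2). Its scaffold subunit gene Ppp2r1a was at 220 ± 15.3 TPM, Stk25 at 126 ± 0.83 TPM and Mob4 at 121 ± 6.37 TPM, and Strip2 was below 1 TPM (0.41 and 0.61 TPM). Ppp2r1a also serves other phosphatase complexes.

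Of the large protocadherins and Fjx1, 4 of 7 were detected. Fat1 was at 16.9 ± 1.51 TPM, Fjx1, the Four-jointed kinase gene that acts on Fat and Dachsous proteins in flies, at 8.38 ± 0.18 TPM, and Dchs1 at 7.81 ± 1.02 TPM. Fat2, Fat3 and Dchs2 lay between 0.36 and 0.57 TPM. Polarity genes were detected for 11 of 12, led by Llgl2 (50.5 ± 0.89 TPM), Crb3 (45.5 ± 5.53 TPM) and Prkci (33.5 ± 1.71 TPM), with the retinal polarity gene Crb1 at 0.08 and 0.04 TPM.

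Among the Vestigial-like family, which binds TEAD factors, Vgll4 stood far above its relatives. Vgll3 was at 2.85 ± 0.071 TPM, Vgll2 at 0.07 and 0.42 TPM (3 and 18 counts) and Vgll1 at 0.06 and 0.13 TPM (2 and 3 counts). Vgll4 was above 50 TPM in both pools, so the other 3 genes did not overlap with it.

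The list of 22 genes often used as YAP and TAZ targets in human and mouse cells held Lats2 and 3 genes of the scaffold and protocadherin lists. It had 20 detected genes and medians of 15.04 TPM (replicate 1) and 15.07 TPM (replicate 2). The medians of the other pathway genes were 15.1 and 16.7 TPM, but that set includes every target except Lats2, so the sets are not separate. The matrix gene Ccdc80 (72.6 ± 4.11 TPM), the receptor kinase gene Axl (68.9 ± 2.30 TPM) and the RNA-binding protein gene Rbms3 (53.6 ± 1.25 TPM) were highest. The classical targets Ccn1 (34.6 ± 3.23 TPM) and Ccn2 (11.02 ± 2.47 TPM) were detected, and Ankrd1, a target also known from muscle, was at 0.23 and 0.19 TPM from 12 and 10 counts. Dock5 missed the threshold in replicate 1 alone (0.88 and 1.08 TPM). Ccn1, Ccn2 and Dock5 are named after their values were seen.

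**Figure D4:**
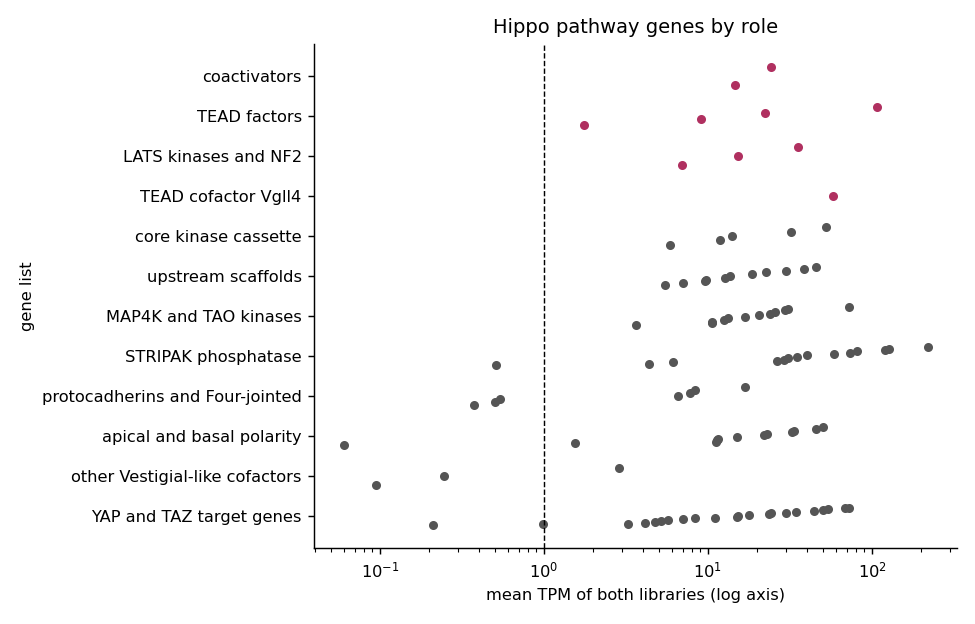
Mean TPM of both libraries on a log axis for every matched gene, by list, with the lists made up of Hippo members in red, the other lists in grey and a dashed line at 1 TPM. Most genes lay between 1 and 100 TPM, and those left of the line included Vgll1, Vgll2, Crb1 and Ankrd1.

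Between the pools no member differed by 2-fold. Each gene's counts were compared by an exact binomial test (two-sided), with Benjamini-Hochberg adjustment over 20918 genes and a call at an adjusted p under 0.05 plus a 2-fold difference. It called 0 of 10 members and 1406 of all genes tested, or 6.72% (5.91% higher and 0.808% lower in replicate 1). By the edgeR exact test the count was also 0, with 3.22% of all genes called. The test compares these 2 libraries, not conditions. Without the fold limit 6 of 10 members passed the adjusted p, where 32.0% of all genes tested did. Among the 10775 genes whose summed counts reached 1000, a limit chosen after seeing the data, 41.0% passed.

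Wwtr1, Lats2 and Vgll4 passed with more RNA in replicate 1, as did 16.8% of all genes tested, and Tead2, Nf2 and Tead4 with less, as did 15.2%, although the lower values of Tead2, Nf2 and Tead4 turned to higher ones with spike-in sizes. With spike-in sizes the median log2 ratio of all genes moved to 0.68 and no member was lower in replicate 1. Tead2 was then at 0.45, Nf2 at 0.49, Tead1 at 0.65 and Tead4 at 0.03, so Tead4 turned only slightly higher. Yap1 was at 0.745, Tead3 at 0.795 and Lats1 at 0.692 with those sizes. With sizes from gene counts the log2 ratio of replicate 1 over replicate 2 was 0.21 for Wwtr1 (adjusted p = 3.72e-05 by the exact binomial test), 0.13 for Lats2 (adjusted p = 0.0128, exact binomial) and 0.13 for Vgll4 (adjusted p = 0.00481, exact binomial). It was -0.23 for Tead2 (adjusted p = 3.92e-16, exact binomial), -0.19 for Nf2 (adjusted p = 2.57e-08, exact binomial) and -0.65 for Tead4 (adjusted p = 0.0067, exact binomial). Yap1 (0.07), Tead3 (0.12), Lats1 (0.01) and Tead1 (-0.03) did not pass with sizes from gene counts. Which members passed depended on the sizes, since with spike-in sizes those genes passed and Tead4 did not. The edgeR exact test, whose dispersion came from the same libraries, gave every member an adjusted p of 1, so no member passed against that dispersion. The median absolute log2 ratio was 0.13 over the members, against 0.15 over all genes tested, 0.12 over protein-coding genes, 0.08 over the other pathway genes and 0.09 over the genes whose summed counts reached 1000.

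**Figure D5:**
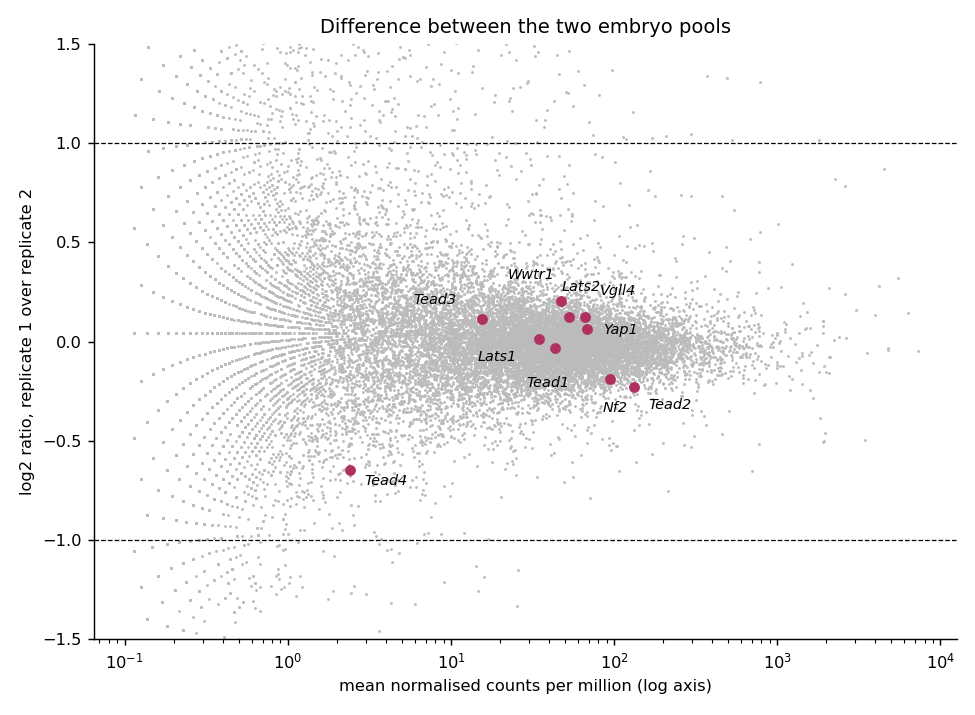
Log2 ratio of replicate 1 over replicate 2 against mean normalised CPM, a read count scaled to library size (log axis), for all tested genes in grey and the 10 members in red, with dashed lines at the 2-fold limit; 1214 genes beyond a log2 ratio of 1.5 in either direction are not drawn. All members lay between -0.65 (Tead4) and 0.21 (Wwtr1) with sizes from gene counts, and between 0.03 (Tead4) and 0.89 (Wwtr1) with spike-in sizes, which are not drawn.

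Marker genes of some other cell types differed between the pools. Forestomach squamous markers summed to 2367 TPM (replicate 1) and 1254 TPM (replicate 2), with 3 of 5 called higher in replicate 1, and 4 of 4 liver markers were called higher there too. Exocrine pancreas markers were lower in replicate 1 without a call, at a median log2 ratio of -0.49, while smooth muscle markers had a median of -0.01 and endothelial markers of -0.09. Red cell markers had a median log2 ratio of 0.80 and mesothelial markers of 0.29. Macrophage, stomach mesenchyme and glandular epithelial markers went both ways, with medians of 0.24, -0.10 and -0.12. What part these cell types had in the differences of the 6 members was not tested. Of the 81 other pathway genes tested, 28 (34.6%) passed the adjusted p without the fold limit, near the 32.0% of all genes tested. With the fold limit 1 was called, where 6.72% of all genes tested were. Vgll2 was called (log2 ratio -2.36, adjusted p = 0.00672 by the exact binomial test), on 3 counts in replicate 1 and 18 in replicate 2.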

How the data were processed

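Per the deposited text notes, the build was mm10 and the annotation M4. For aligner, quantification program, versions and strand setting, nothing is given in the sources used here. The deposited tables hold an expected count, TPM and posterior-mean TPM per gene and transcript, with TPM scaled by the authors over all features including spike-ins, and the share of a gene's TPM per transcript in percent. The deposited bounds around TPM carry no stated level. Spike-ins took 1.88% and 3.00% of the counts in replicates 1 and 2, and numeric IDs 0.000195% and 0.000186%, and neither entered library sizes or tests. Symbols, transcript types and coordinates came from GENCODE M21 (98.0% of genes matched), and transcripts without a match were not counted as protein-coding. Where M21 moved a transcript or an end, M4 models may differ.

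Expected counts were rounded to whole numbers. Genes whose summed counts reached 10 were compared by an exact binomial test with TMM sizes (edgeR 4.0.16, R 4.3.3) and a prior count of 0.5. With 1 library per side no quasi-likelihood test could be fitted. The steps were run on simulated counts that varied between libraries by counting alone, as the binomial test assumes. That run therefore cannot show how often the test calls genes falsely in these pools. The edgeR exact test used a biological coefficient of variation of 0.2. DESeq2 1.42.0 gave alternative size factors. Detection meant 1 TPM in both libraries.

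Members, gene lists and tests were chosen with earlier results of these data known. Named genes were all members, the 3 highest detected genes of each list, its genes below 1 TPM in both libraries or called between libraries, and member transcripts at 10% or more in both. Others are said to be named after their values were seen, as are Tead1-201, Tead2-202, Tead3-206, ENSMUST00000080572.9, Gm20430 and Cd37. Promoter windows came from RefSeq (GRCm38.p6).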

Additional observations from a re-analysis of the deposited data

How the results depend on the processing

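With protein-coding transcripts alone the median member fell to 14.9 TPM and the Tead2 share of its family was 85.4%, against 18.7 TPM and 76.5% by gene TPM. Posterior-mean TPM gave 76.1% for Tead2 and 29.95% for Lats1 within its pair, against 31.4%. These shifts exceeded 1 SD of 2 libraries. No member was called under any scaling, count minimum or the edgeR exact test, and 6 passed without the fold limit. Over all genes the 1406 calls became 3504 with spike-in sizes, 855 at 50 counts, 6700 without the fold limit and 674 with the edgeR exact test. Spike-in sizes moved the median log2 ratio of all genes to 0.68, and the cause was not tested. With them Tead1 moved from -0.03 to 0.65, Tead2 from -0.23 to 0.45 and Nf2 from -0.19 to 0.49. Tead4 moved from -0.65 to 0.03, only slightly higher in replicate 1. Members passing without the fold limit were counted with sizes from gene counts alone. Detected members numbered 9 at 5 TPM and 7 at 10 TPM. Over 2 libraries, leaving out either cannot move a mean by 1 SD, so it says nothing about stability. No paired analysis was possible because the series has 1 group. Tead4 rests on 81 and 131 counts, which limits its isoform shares, and Tead3 had 84.1% and 61.7% of its TPM on protein-coding transcripts.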

Other observations

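The TEAD binding letters GGAATG, read on both strands, were searched in the 300-base RefSeq promoter windows of the members. Windows were found for 8 members, and 5 of these (62.5%) held the letters in at least 1 window, as did 7 of 15 target genes with a window (46.7%) and 16.6% of all 27025 genes in the table. By window the shares were 7 of 13 (53.8%) for the members and 14.7% of all 32851. The sets were chosen by name, and no test was made. A match is a description and shows no binding.

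Matches upstream of the start are shown for Yap1, Wwtr1 and Vgll4, and for the target gene Ccn1, with the letters in capitals as they stand on the gene's strand (GGAATG or its reverse complement CATTCC). All 4 genes lie on the minus strand, and the build is GRCm38.p6. The Yap1 match lies 141 bases upstream (chr9:8004723-8004746), that of Wwtr1 136 bases (chr3:57576032-57576055), that of Vgll4 82 bases (chr6:114969271-114969294) and that of Ccn1 103 bases (chr3:145650074-145650097). The Vgll4 distance is to a RefSeq start that is neither that of the leading Vgll4-201 (base 114921821) nor that of Vgll4-203 (base 114969994). The Wwtr1 distance is to base 57575910, the start of Wwtr1-202, which held 2.47% and 0.34% of the Wwtr1 TPM. The leading Wwtr1-201 starts at base 57575828, further from the match.
Yap1: gagtctgcaGGAATGtagcgacgc
Wwtr1: aaactcaaaGGAATGcagataggc
Vgll4: gtggggtggGGAATGctgagaaat
Ccn1: gccaaccaaCATTCCtgagatgtt
Tead3 had matches in more than 1 window and Lats2 had one just past its start.

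Cd37, a leukocyte gene on the strand opposite to Tead2 and overlapping it, is named after its values were seen. It held 208 and 137 counts, against 5237 and 6321 counts on Tead2. The other genes that overlap members and have values in the tables, apart from Gm20430 in Lats2, held at most 12 counts.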
